A study of Mus musculus with 158 samples.

Results

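Short hairpin RNAs (shRNAs) were read out in a pooled screen of PDA530 Met, a mouse pancreatic adenocarcinoma line labelled as taken from a liver metastasis. The 4 hairpins described here are controls of that screen: Non-targeting-shRNA-1 (identifier SHC002_SHC202), Non-targeting-shRNA-2 (SHC016_SHC216), one named GFP (SHC004_SHC204) and one named MUC1 (TRCN0000108858). They were taken from the rows marked as controls, leaving out identifiers with an asterisk, and are 4 of 8 control hairpins and of 1008 hairpins in all, of which 1000 target genes. Control hairpins were placed in every pool to follow consistency from pool to pool, per the series' design text.

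A hairpin integrates with its viral vector into the DNA of the infected cell, so its share of the reads from genomic DNA follows the share of cells that descend from that infection. A non-targeting hairpin carries a sequence chosen to match no transcript, and a hairpin against green fluorescent protein (GFP) targets a reporter that cells lack unless it is introduced. Such hairpins serve as the neutral reference of a screen, against which a gene's hairpins are judged. MUC1 is a membrane mucin of epithelial surfaces, often abundant in pancreatic carcinoma. Its symbol is written in capitals in the files, as for a human gene, and the labels do not say whether the hairpin matches the mouse transcript.

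Each of 19 pools was delivered at a multiplicity of infection of 0.3 and selected for 4 days with 3 µg/ml puromycin, per the labels' protocols. Cells were then taken at day 0, kept in culture for 28 days, or injected into the tail vein of mice (3 per pool), whose lung tumours were pooled by mouse after 28 days. All groups carry the same selected viral vector, and the labels give no strain, sex, age or genotype of the mice. After technical repeats were summed there were 142 libraries with values, 56 from day 0, 37 from culture and 49 from lungs. Of the culture libraries, 27 were named for 2 pools and 10 for 1 pool. Pool 3 had no lung values and pool 13 had values at day 0 only. Nothing in the labels says that the lettered libraries of a pool came from separate infections, so p-values measure the spread between these libraries or pools, which may be technical.

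The smallest and largest day 0 libraries held 4122499 and 22155103 reads. Culture libraries held 4525271 to 26068457 and lung libraries 58186 to 13887891. Each level below is a hairpin's reads per 1000 reads of the targeting hairpins of the pools named for that library, so control reads are not part of the denominator. Every level is relative: a control that falls cannot be told apart from targeting hairpins that rise. Reads are PCR products without molecular identifiers and are not independent molecules. Lung libraries 10C and 16D stood apart (libraries are named by pool number and letter). Library 10C held 1946 targeting reads of its pool and 99.2% control reads, and library 16D held 42538 targeting reads of its pool, with 74.1% of its reads from hairpins of other pools. The lung means over all pools are therefore given with and without them, and other lung results say which libraries they keep. Lung library 6A also had few targeting reads of its pool (40555 of 58186 reads in all) and was kept, since its reads were mostly those of its own pool.

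The composition of the controls at day 0 was described first. Non-targeting-shRNA-1 was present in all 19 pools, with pool means from 3.15 reads per 1000 targeting reads in pool 3 to 258 in pool 4 and a median of 102. GFP had pool means of 4.97 to 46.0 in 17 pools, but 0.165 in pool 1 and 0.170 in pool 2. Non-targeting-shRNA-2 had 6.80 to 62.5 in the same 17 pools, but 0.403 in pool 1 and 0.49 in pool 2. MUC1 had 16.2 to 86.3 in 11 pools (1, 2 and 4 to 12) and 0.326 to 1.69 in the other 8 (3 and 13 to 19). The pools therefore did not carry the same mixture of controls, although the series' design text gives each pool 8.

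A limit of 2 reads per 1000 targeting reads at day 0, set after these values were seen, separates pools that held a hairpin from pools with only traces of it. The nearest pool means on either side were 1.69 for MUC1 in pool 13 and 3.15 for Non-targeting-shRNA-1 in pool 3. By this limit GFP and Non-targeting-shRNA-2 were both held in 17 pools and both missing from the other 2. MUC1 shared its 11 pools, and its 8 pools with traces, with the control hairpin named PIK3CA. In the 23 day 0 libraries of the latter pools, MUC1 made up 0.0135% to 0.244% of all reads. Over all 56 day 0 libraries, reads of hairpins from pools not named for the library made up 0.0217% to 3.03%, with a median of 0.242%.

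Within a pool, day 0 libraries resembled each other closely. The SD of the log2 level between day 0 libraries of one pool had a median of 0.044 for Non-targeting-shRNA-1, 0.037 for Non-targeting-shRNA-2 and 0.036 for MUC1 over the pools holding each. GFP was less even, with a median SD of 0.16. Between the pools holding a hairpin the SD of the pool means was 1.39 for Non-targeting-shRNA-1, 0.85 for GFP, 0.71 for Non-targeting-shRNA-2 and 0.62 for MUC1, in each case well above the spread within pools. A level in one pool can thus be set against day 0 of the same pool, and not against another pool.

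Non-targeting-shRNA-1, the most abundant of the 4 at day 0 in 18 of 19 pools (in pool 3 both Non-targeting-shRNA-2 and GFP were higher), rose during culture. In pool 9 its levels were 102, 102 and 103 reads per 1000 targeting reads in the day 0 libraries and 169 to 177, with a median of 174, in 6 culture libraries. Each of these cultures was shared with pool 8 or 10. In pools 8 and 10 it began higher, with day 0 means of 127.7 and 128.3. In pool 3, where it was rarest, it had 2.96 and 3.34 at day 0 and 6.08, 6.11 and 7.65 in culture. Every culture library lay above every day 0 library in pool 9 and in pool 3. The same held in 17 of 18 pools, where 18.2% of 1089 pairs of a hairpin and a pool, over all hairpins tested, had every culture library above every day 0 library and 52.1% had every one below. In pool 19 the groups overlapped, with 64.5, 67.7 and 68.7 at day 0 and 65.0 to 137 in 4 culture libraries. The 3 cultures shared with pool 18 had 65.0 to 102.7, and the culture named for pool 19 alone had 137.

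Pools 3 and 12, whose cultures were named for no other pool, had rises of 2.09-fold and 1.45-fold. A culture named for 2 pools has 1 control level for both, so a fold for either pool also moves with the day 0 level of that pool alone, and pools were averaged into 9 sets without shared libraries before testing. The mean change was 0.60 ± 0.22 on the log2 scale (SD, n = 9 sets), higher in 9 of 9 sets (exact two-sided sign-flip permutation test, adjusted p = 0.0117). This adjustment, by Benjamini-Hochberg, covers the 8 control hairpins and 3 comparisons, and 9 sets allow no exact p below 0.00391. Of 18 pools, limma called the hairpin higher in 17, where a call is an adjusted p under 0.05 over every hairpin and pool tested. Over all 1089 such pairs, 16.9% were called higher in culture and 49.4% lower, and the median change was -0.72. Pools in shared cultures are not independent in this count.

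In lungs the direction of Non-targeting-shRNA-1 differed between pools. In pool 1 it had 116, 117 and 137 reads per 1000 targeting reads at day 0 and 68.0, 70.9 and 79.1 in 3 mice. In pool 19 it had 64.5, 67.7 and 68.7 at day 0 and 98.5, 131 and 145 in 3 mice. The groups do not overlap in either pool, with all mice below day 0 in the first and all above it in the second. Every lung library lay above every day 0 library in 5 pools (4, 9, 11, 17 and 19) and below in 3 (1, 2 and 12), and the groups overlapped in 9, both with and without libraries 10C and 16D. Over all 1027 pairs of a hairpin and a pool, 14.1% lay above throughout and 47.6% below, or 15.9% and 50.1% without those libraries. limma called Non-targeting-shRNA-1 higher in 3 of 17 pools and lower in 1, where 9.44% of the pairs were called higher and 32.2% lower. Without those libraries it was called higher in 3 and lower in 2, where 11% of the pairs were called higher and 37.4% lower. The lower calls did not recur with other scalings. edgeR and limma with TMM factors each called Non-targeting-shRNA-1 higher in 5 pools and lower in 0. Over all pairs, 14.6% were called higher with either, 19.3% lower with edgeR and 22.5% lower with TMM factors. DESeq2 called Non-targeting-shRNA-1 higher in 8 and lower in 0, against 25.7% and 24.4% of all pairs.

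The mean change of Non-targeting-shRNA-1 from day 0 to lungs was 0.76 ± 1.51 (SD, n = 17 pools), higher in 12 (two-sided sign-flip permutation test with 100000 resamples, adjusted p = 0.0341). This call rested on libraries 10C and 16D, and it was also lost when any of 9 single pools was left out. Without both libraries the change was 0.25 ± 0.54, higher in 12 of 17 pools, and did not pass the threshold (permutation test, adjusted p = 0.0834). In library 6C the hairpin reached 2736 reads per 1000 targeting reads and 69.9% of all reads, against 131 and 219 in the other mice of pool 6. In library 10C it made up 82.1% of all reads. Without 6C as well, the change was 0.17 ± 0.41 (permutation test, adjusted p = 0.126).

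Non-targeting-shRNA-2 fell in both arms, unlike the hairpin it is paired with by name. In pool 8 its levels were 31.0, 31.1 and 32.2 reads per 1000 targeting reads at day 0 and 3.95, 4.13 and 4.23 in culture. In lungs of the same pool it had 0.815, 1.31 and 2.20. The 3 arms do not overlap in that pool, and the mice differed from each other more than the cultures did.

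Culture libraries of Non-targeting-shRNA-2 lay below every day 0 library in 18 of 18 pools, against 52.1% of all pairs. limma called it lower in all 18, against 49.4% of all pairs. In pools 3 and 12, with cultures of their own, the fall was 4.09-fold and 5.47-fold. The mean change was -2.60 ± 0.35 (SD, n = 9 sets), with none of 9 positive (exact permutation test, adjusted p = 0.0117). Over the 8 sets of pools that held it, the change was -2.53 ± 0.29 (exact permutation test, adjusted p = 0.0170). Ranked among the changes of its pool's targeting hairpins, it stood at a median percentile of 8.55 over the holding pools, where 0 is the lowest.

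From day 0 to lungs the change of Non-targeting-shRNA-2 was -3.46 ± 1.43 (SD, n = 17 pools), with 0 of 17 pools positive (permutation test, adjusted p = 0.00036). Without libraries 10C and 16D it was -3.69 ± 0.99 (permutation test, adjusted p = 0.000144), and over the 15 holding pools -3.29 ± 1.41 with them and -3.55 ± 0.92 without, from 3.60-fold lower in pool 9 to 36.1-fold lower in pool 6. limma called it lower in 15 of 17 pools (32.2% over all pairs), and in 17 of 17 without those libraries (37.4% over all pairs). Its lung libraries lay below every day 0 library in the same numbers of pools, 15 and 17 of 17, against 47.6% and 50.1% of all pairs. In pool 6 the levels were 32.7, 33.8 and 34.5 at day 0 and 0.459, 0.616 and 2.86 in lungs. In pool 9 they were 25.7, 26.0 and 26.3 at day 0 and 5.37 and 9.75 in the 2 mice with values. In both pools every mouse lay below every day 0 library.

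The lowest read number of any of the 4 hairpins belonged to Non-targeting-shRNA-2 in the lungs of pool 1, a pool that held only traces of it. One of the 2 technical runs of lung library 1A had 0 reads of it among 119249 targeting reads, and the other had 1 among 106391. After summing, none of the 4 hairpins was at 0 in any library.

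GFP moved less than Non-targeting-shRNA-2 and MUC1. Between day 0 and lungs its change was -0.64 ± 1.07 (SD, n = 17 pools), lower in 15 pools (permutation test, adjusted p = 0.0379), a call that was lost when any of 13 single pools was left out. Without libraries 10C and 16D it was -0.92 ± 0.67, lower in 17 of 17 pools (permutation test, adjusted p = 0.000144). Over the 15 pools that held it, without those libraries, it was -0.82 ± 0.59, from 1.16-fold lower in pool 7 to 5.18-fold lower in pool 9. Over the same 15 pools with both libraries kept it was -0.49 and did not pass (permutation test, adjusted p = 0.119).

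The levels of GFP show how uneven this was. In pool 7 it had a median of 21.9 and at most 25.5 reads per 1000 targeting reads at day 0 and 16.8, 19.3 and 22.2 in lungs, which overlap. In pool 9 it had 15.2, 17.3 and 18.1 at day 0 and 1.68 and 6.26 in lungs, which do not. In pool 14 one mouse had 71.3, above the day 0 levels of 24.5, 31.4 and 33.6, while the others both had 6.82. limma called it lower in 3 of 17 pools and higher in none, a share below the 32.2% of all pairs called lower, and lower in 4 without libraries 10C and 16D, where that share was 37.4%. The count of 3 moved to 8 without the lung libraries lettered B and to 6 without those lettered A, where 37.8% and 37.7% of all pairs were called lower. It was 1 with edgeR, against 19.3% of all pairs. DESeq2 called GFP lower in 1 pool and higher in 2, against 24.4% and 25.7% of all pairs.

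In culture GFP fell, with a change of -0.63 ± 0.50 (SD, n = 9 sets), lower in 8 of 9 (exact permutation test, adjusted p = 0.0216). limma called it lower in 8 of 18 pools and higher in 1, against 49.4% and 16.9% of all pairs. The count of 8 was 5 without the day 0 libraries lettered B or C, against 43.1% and 43.5% of all pairs. The balance turned with the scaling, for GFP and over all pairs. edgeR called GFP lower in 1 pool and higher in 4, against 32% and 29.1% of all pairs. DESeq2 called it lower in 2 and higher in 5, against 32.8% and 32%, and limma with TMM factors lower in 2 and higher in 4, against 34.3% and 28.4%. The pool called higher was pool 6, with 17.2, 18.4 and 18.4 reads per 1000 targeting reads at day 0 and 22.7, 28.2 and 31.3 in the cultures it shares with pool 7. In pool 8 the direction was the opposite, with 28.0, 30.2 and 31.4 at day 0 and 12.5, 14.1 and 15.2 in the cultures it shares with pool 9. The groups do not overlap in pool 6 or in pool 8. The partner pools began at other levels, with GFP day 0 means of 22.5 in pool 7 and 16.9 in pool 9.

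The median targeting hairpin of a pool also had a negative change against the sum. That change had a median of -0.63 over 17 pools in lungs, from -2.30 to -0.11, and in culture it ran from -0.98 to -0.26. The pool medians subtracted below took all lung libraries in every setting, so leaving out 10C and 16D changed only the control's value. Set against that median hairpin instead of the sum of targeting reads, GFP stood at -0.03 ± 0.52 in lungs over 15 holding pools, 8 of them positive (permutation test, adjusted p = 0.868, without libraries 10C and 16D). In culture it stood at 0.08 ± 0.47 over 8 sets (exact permutation test, adjusted p = 0.732). Single pools ran from -1.04 to 1.31 in lungs and single sets from -0.50 to 0.89 in culture, so this does not show that GFP followed the median hairpin in each pool. With all pools and libraries the lung values on this scale were 0.17 ± 1.06 for GFP, 1.57 ± 1.72 for Non-targeting-shRNA-1 and -2.66 ± 1.65 for Non-targeting-shRNA-2 (permutation tests, adjusted p = 0.585, 0.00032 and 0.00048). Against the median hairpin in holding pools, without 10C and 16D, Non-targeting-shRNA-1 was higher by 1.05 ± 0.83 in lungs (16 of 17 pools, permutation test, adjusted p = 0.0003) and by 1.25 ± 0.34 in culture (9 of 9 sets, exact permutation test, adjusted p = 0.00937). Non-targeting-shRNA-2 was lower, at -2.77 ± 1.27 in lungs over 15 pools (permutation test, adjusted p = 0.0003) and -1.87 ± 0.38 in culture over 8 sets (exact permutation test, adjusted p = 0.0134).

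MUC1 fell in culture. In pool 11 it had 68.2, 69.8 and 71.0 reads per 1000 targeting reads at day 0 and 6.98, 7.01 and 7.48 in culture. In pool 12 it had 15.8, 16.0 and 16.6 at day 0 and 1.83, 2.27 and 2.36 in culture. No culture library overlapped with day 0 in any of the 11 holding pools (52.1% of all pairs lay below throughout), and limma called all 11 lower (49.4% of all pairs). In pool 12, the only holding pool with cultures of its own, the fall was 7.54-fold.

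Over all 9 sets, including pools with traces, the change of MUC1 in culture was -2.75 ± 0.51 (exact permutation test, adjusted p = 0.0117). Over the 5 sets of pools that held it, it was -3.10 ± 0.17, lower in 5 of 5. With 5 sets the smallest exact p is 0.0625, so this restricted test cannot pass the threshold (adjusted p = 0.0938).

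In lungs MUC1 also fell. Its change was -1.78 ± 2.13 (SD, n = 17 pools), lower in 15 (permutation test, adjusted p = 0.0140; -1.41 and adjusted p = 0.152 without the lung libraries lettered E), and -2.44 ± 0.69, lower in 17 of 17, without libraries 10C and 16D (permutation test, adjusted p = 0.000144). Over the 11 holding pools it was -1.98 ± 1.74 with those libraries (permutation test, adjusted p = 0.0193) and, without them, -2.42 ± 0.58, lower in 11 of 11 (permutation test, adjusted p = 0.00339). limma called it lower in 9 of these 11 pools with all libraries kept and in 10 without those libraries, against 32.2% and 37.4% of all pairs. In pool 1 it had 47.7, 48.3 and 49.0 reads per 1000 targeting reads at day 0 and 3.60, 4.17 and 7.03 in lungs, a 10.2-fold difference. In pool 8 it had 59.8, 60.0 and 60.6 at day 0 and 11.6, 18.0 and 23.8 in lungs, a 3.53-fold difference. In library 10C it made up 14.8% of all reads, against 1.20% and 1.38% in the other mice of pool 10. With all libraries kept, the call over 17 pools was lost with TMM factors, against the median targeting hairpin and against the other controls.

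Lungs were compared with culture next; both comparisons above share the day 0 libraries, so their values are set side by side and not correlated. Non-targeting-shRNA-2 differed between lungs and culture by -0.99 ± 1.04 (SD, n = 8 sets), which missed the threshold (exact permutation test, adjusted p = 0.0521). Without libraries 10C and 16D the difference was -1.17 ± 0.74, lower in 8 of 8 sets (exact permutation test, adjusted p = 0.0117). limma called it lower in 2 of 17 pools with or without those libraries, against 15.5% and 16.4% of all pairs. Without the culture libraries lettered A, B or C, limma called it lower in 1, 0 and 0 pools, against 10.1%, 8.78% and 9.56% of all pairs. edgeR called it higher in 3 pools and lower in 1, against 14.3% and 13.1% of all pairs, and DESeq2 higher in 3 and lower in 5, against 20.9% and 15.1%. In pool 12 its culture levels were 1.11, 1.31 and 1.32 reads per 1000 targeting reads and its lung levels 0.133, 0.227 and 0.603. Pool 9 went the other way, with 2.76 to 4.23 in 6 culture libraries and 5.37 and 9.75 in lungs. Neither pool's groups overlap.

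MUC1 differed between lungs and culture by 0.87 ± 1.37 (SD, n = 8 sets), which did not pass (exact permutation test, adjusted p = 0.131), and by 0.33 ± 0.57 without libraries 10C and 16D (exact permutation test, adjusted p = 0.170). Over the 5 holding sets without libraries 10C and 16D the difference was 0.55 ± 0.55, higher in 4 of 5 (exact permutation test, adjusted p = 0.205). limma called it higher in 3 pools (5, 6 and 8) and lower in none, where 11.5% of 1025 hairpin and pool pairs were called higher and 15.5% lower. It was called higher in 4 pools without libraries 10C and 16D, where 12.9% were called higher and 16.4% lower. It was called higher in 5 without the lung libraries lettered C and in 5 with edgeR, against 13.6% and 14.3% of all pairs. Without the culture libraries lettered A, B or C it was called higher in 2, against 8.79%, 8.29% and 8.98%. Every lung library lay above every culture library in 5 of the 11 holding pools, against 18% of all pairs, and in 5 without those libraries, against 20.2%. In pool 6 it had 5.23, 5.64 and 6.67 reads per 1000 targeting reads in culture and 10.9, 17.7 and 20.3 in lungs, with no overlap.

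Non-targeting-shRNA-1 differed by 0.06 ± 0.89 between lungs and culture (SD, n = 8 sets, exact permutation test, adjusted p = 0.875). Without libraries 10C and 16D it was -0.34 ± 0.40 (exact permutation test, adjusted p = 0.0691), and without 6C as well -0.42 ± 0.31, lower in 7 of 8 sets (exact permutation test, adjusted p = 0.0234). limma called it lower in 6 of 17 pools with or without 10C and 16D, against 15.5% and 16.4% of all pairs. The count of 6 was 2 without the culture libraries lettered A or B, against 10.1% and 8.78% of all pairs. edgeR called it higher in 2 and lower in 5, against 14.3% and 13.1%, and DESeq2 higher in 2 and lower in 3, against 20.9% and 15.1%. Its lung libraries lay below every culture library in 7 pools, against 24% of all pairs, and in 8 without 10C and 16D, against 25%. GFP differed by -0.06 ± 0.83 with all libraries and by -0.29 ± 0.52 without 10C and 16D, neither past the threshold (exact permutation tests, adjusted p = 0.875 and 0.171).

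Ratios of hairpins within one library do not depend on the denominator. In pools holding both, Non-targeting-shRNA-1 had a median of 3.80 reads for each read of Non-targeting-shRNA-2 in 50 day 0 libraries, 34.5 in 34 culture libraries and 52.8 in 43 lung libraries. The day 0 ratios ran from 0.143 to 4.99, those in culture from 0.811 to 63.5 and those in lungs from 7.43 to 5500. In pool 8 every day 0 ratio lay between 3.97 and 4.19, every culture ratio between 41.0 and 44.4 and every lung ratio between 55.2 and 231. The lung median was 51.2 over 41 libraries without 10C and 16D, and the highest ratio was then 4439, in library 6C. The low end of the day 0 and culture ranges is pool 3, where Non-targeting-shRNA-1 was the rarer of the pair in both day 0 libraries and in 1 of 3 culture libraries. Both hairpins are named as non-targeting, and their median ratio was larger in culture and in lungs than at day 0.

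The other ratios involving MUC1 moved between the arms as well. Non-targeting-shRNA-1 had a median of 2.28 reads for each MUC1 read in 33 day 0 libraries, 27.5 in 21 culture libraries and 15.3 in 32 lung libraries. GFP had 0.379 at day 0, 2.24 in culture and 1.30 in lungs for each MUC1 read. Non-targeting-shRNA-2 and MUC1, which both fell, stayed nearer to each other in culture, at medians of 0.531 at day 0 and 0.629 in culture, but stood at 0.214 in lungs. The lung medians of these ratios without libraries 10C and 16D were 15.6, 1.32 and 0.217 in the order given. The ratios are descriptions over libraries that share pools and were not tested.

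The spread between mice of one pool was then compared with the spread between day 0 libraries. For Non-targeting-shRNA-1 the SD of the log2 level between mice had a median of 0.26 over 17 pools, against 0.044 at day 0, and rose by a mean of 1.15 in SD (permutation test, adjusted p = 6e-05, larger in 16 of 17 pools). That mean fell to 0.38 without libraries 10C and 16D and to 0.27 without 6C as well, each still past the threshold (permutation tests, adjusted p = 0.000107 and 0.00016). The adjustment here is over the 8 control hairpins. The lowest spread was in pool 9, with 145 and 152 reads per 1000 targeting reads in 2 mice, and the highest, once 10C and 16D were left out, in pool 6, where the highest mouse was 20.9 times the lowest.

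By the median SD, though not by the mean difference from day 0 with every library kept, Non-targeting-shRNA-2 varied most between mice among the 4. Its median SD was 1.06 over 14 holding pools without libraries 10C and 16D, against 0.034 at day 0 in those pools, a mean difference of 0.99 and larger in 14 of 14 (permutation test, adjusted p = 0.000208). In pool 11 the mice had 1.20, 2.08 and 18.8 reads per 1000 targeting reads, a 15.6-fold range, while the day 0 libraries had 31.0, 32.5 and 33.8. In pool 7, the most even, the mice had 1.54, 1.74 and 2.31. The difference in spread between hairpins was not tested.

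GFP had a median SD between mice of 0.42 in its holding pools without those libraries, and MUC1 had 0.51. In all holding pools with every library kept, the mean differences from day 0 were 1.23 for Non-targeting-shRNA-2, 0.83 for GFP and 1.32 for MUC1. Without libraries 10C and 16D they were 0.41 for GFP (larger in 13 of 14 pools, permutation test, adjusted p = 0.00036) and 0.57 for MUC1 (11 of 11 pools, permutation test, adjusted p = 0.00099). In pool 4 MUC1 had 6.74, 17.1 and 42.8 reads per 1000 targeting reads in 3 mice, a 6.34-fold range, against 61.6, 61.6 and 63.7 at day 0. Since the day 0 libraries of a pool may be technical repeats, these tests do not separate the part of the spread that lies between animals from the rest.

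Targeting hairpins give the scale for these SDs. Their median SD was 0.10 at day 0, 0.30 in culture and 0.54 in lungs over 689 hairpin and pool pairs in the last. Non-targeting-shRNA-1 lay below the lower quartile of 0.29 for targeting hairpins in lungs, and Non-targeting-shRNA-2 above the upper quartile of 0.98. In culture the median SDs were 0.11, 0.25, 0.24 and 0.26 for Non-targeting-shRNA-1, Non-targeting-shRNA-2, GFP and MUC1 in their holding pools, between day 0 and lungs in each case. Levels of abundant hairpins carry less counting error, and its part in these SDs was not tested.

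Technical repeats show how far 2 runs of one library can differ. Repeats of lung library 8A had 226 and 225 reads per 1000 targeting reads for Non-targeting-shRNA-1, 1.37 and 1.25 for Non-targeting-shRNA-2, 17.3 and 19.9 for GFP and 11.9 and 11.3 for MUC1. Repeats of day 0 library 1A had 128 and 104 for Non-targeting-shRNA-1, a log2 difference of -0.31, and culture library 1/2A had 158 and 187, a difference of 0.25. In the other 4 repeated libraries this hairpin differed by -0.01, -0.01, 0.00 and 0.12. In day 0 library 8A, GFP differed most, with 27.3 and 35.0 (0.36). In culture library 1/2A, GFP differed least (-0.08) and Non-targeting-shRNA-2 differed by 0.36, both present there only as traces. GFP had the largest difference of the 4 hairpins in 4 of 6 repeated libraries. These include day 0 library 1A, where GFP was present only as traces and differed by 0.77.

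Levels of the 4 hairpins were last compared across mice, as changes from the day 0 mean of the pool. Over 49 lung libraries the nearest control of Non-targeting-shRNA-1 was MUC1 (Pearson r = 0.86) and then GFP (r = 0.79), but with libraries 10C and 16D left out the highest r for this hairpin was 0.23. MUC1 was nearest to PIK3CA (r = 0.47 over 47 libraries) and to Cdkn1b (r = 0.40) without those libraries, but 16 of the 47 come from pools with only traces of both MUC1 and PIK3CA. Centred within pools, GFP and MUC1 had r = 0.50 over 25 lung libraries, and the other 5 pairs of the 4 hairpins ran from -0.03 to 0.15. All values of a library share its denominator, so these are descriptions with no test.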

How the data were processed

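Hairpin reads from genomic DNA were analysed in 148 of 158 samples; 10 had no values. The authors deposited a normalised signal for each hairpin; its scaling is not given in the sources used here, and BWA 0.5.9 appears, with no role stated, in the submitters' processing notes. Each signal was divided by the smallest in its library, taken as 1 read. All 27241 of 27241 values came out whole within 0.01 (100%). A hairpin without a row was taken as 0 reads, and repeats were summed. Because the deposited unit was a scaled signal, limma was the main test and count tests were alternatives.

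Levels were tested as log2(reads per 1000000 targeting reads of the named pools + 1), computed from the whole reads recovered from the deposited signal. A change is a difference of library means per pool. A positive pseudocount understates changes of rare hairpins. Sign-flip permutation tests ran over pools, or over sets of pools that share no culture library. Calls used limma 3.58.1 (R 4.3.3) with trend and robust settings per pool, leaving out hairpins with a mean under 10 reads. All 68 or 72 pairs of a member and a pool passed that filter in each comparison. Targeting hairpins were divided by the reads of their own pool. Alternatives used edgeR 4.0.16 quasi-likelihood, DESeq2 1.42.0, TMM factors, other denominators, pseudocounts and left-out libraries. Scripts were tested on simulated data. By the naming rule all 4 members are named, other controls only for likeness, and single pools or libraries mainly for extreme values; further pools were chosen as examples after their values were seen. The members, lists and tests were chosen with earlier results of these data known.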

Additional observations from a re-analysis of the deposited data

Results flagged for a closer look

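In groups of 4 to 6 culture libraries, 1 library lay far from the others. Non-targeting-shRNA-2 had 2.758 reads per 1000 targeting reads in culture library 9/10A, against 3.95 to 4.23 in the other libraries of pool 9 and 3.95 to 4.75 in those of pool 10. Both entries are the same library. Of 20 groups tested, chance would be expected to bring out about 1 in 20.

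Some pools went in opposite directions, which was not tested. For Non-targeting-shRNA-1 every lung library lay above day 0 in 5 of 17 pools and below it in 3, against 14.1% and 47.6% of all hairpin and pool pairs. For GFP every culture library lay above day 0 in 1 of 16 pools and below it in 9, against 18.2% and 52.1%. Between lungs and culture, Non-targeting-shRNA-2 was higher throughout in 2 of 15 pools and lower throughout in 6, and GFP was higher throughout in 1 of 15 and lower in 4, against 18% and 24% of all pairs. These counts leave out pools with only traces of the hairpin and keep libraries 10C and 16D. Without those libraries the lung counts were the same, except that GFP was lower than culture throughout in 5 pools.

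Control rows whose identifier carries an asterisk were not part of the comparisons. The row for Lamc1 had a value in 91 samples, with at most 882 reads and 0.0140% of a library's reads. Those for Utrn and ELMO1 had values in 18 and 2 samples, with at most 2 reads and 1 read.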

How the results depend on the processing

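All 4 hairpins kept the larger spread between mice under every setting run. With the replicate block (library letter), the 4 hairpins together had 3 higher and 29 lower calls for lungs against day 0. They had 18 and 39 for culture, and 3 and 11 for lungs against culture. These totals were the same without the block, but counts of single hairpins moved. In culture, for example, lower calls went from 8 to 7 for GFP and from 13 to 14 for MUC1 under the block. Over all hairpins the shares under the block were 7.21% and 29.8%, 17.4% and 49.2%, and 11% and 15.2%. Deviations of same-lettered libraries had median correlations of 0.11, 0.04 and 0.06, and 28 of 53, 19 of 49 and 21 of 49 were above 0.1, so letters were not taken as pairs. Where values below lost or gained a call or changed direction, the cause was not tested, apart from tests with too few sets to pass.

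Between lungs and day 0, Non-targeting-shRNA-1 lost its call at 0.25 without libraries 10C and 16D (also in holding pools), 0.24 there with targeting reads of any pool, 0.17 without 6C too, 0.27 without libraries under 100000 targeting reads and 0.60 over sets of pools. GFP lost it at -0.01 with TMM factors, -0.49 in holding pools, -0.62 over sets, -0.51 with a pseudocount of 100 and -0.03 against the median targeting hairpin in holding pools without 10C and 16D. It turned to 0.17 against that median with all libraries and to 1.13 against the other 7 controls. MUC1 lost it at -1.15 with TMM factors, -0.98 against the median hairpin and -0.18 against the other controls.

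In culture, GFP lost its call at -0.10 with TMM factors and -0.05 with deposited values, and turned to 0.02 against the median hairpin, 0.08 against it in holding pools and 0.85 against the other controls. With only culture libraries named for 1 pool, too few sets remained to pass, at 0.70 for Non-targeting-shRNA-1, -0.32 for GFP, -2.77 for Non-targeting-shRNA-2 and -3.10 for MUC1. MUC1 in its 5 holding sets likewise could not pass, at -3.10, -3.09 with targeting reads of any pool and -2.51 against the median hairpin.

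Between lungs and culture, Non-targeting-shRNA-1 turned to -0.20 with targeting reads of any pool, -0.33 with all reads, -0.75 with deposited values, -0.13 as a median, -0.34 without 10C and 16D, -0.31 without shallow libraries, -0.07 against the median hairpin in holding pools and -0.42 without 6C. It passed at 0.40 against the other controls. GFP passed at -0.87 with deposited values and turned to 0.03 with TMM factors and with single-pool cultures, 0.21 against the median hairpin, 0.26 against the other controls, 0.01 with a pseudocount of 100 and 0.04 in holding pools. Non-targeting-shRNA-2 passed at -1.25 with targeting reads of any pool, -1.38 with all reads, -1.81 with deposited values, -0.80 against the other controls, -1.17 without 10C and 16D, -1.22 without shallow libraries, and -1.12 and -1.10 in holding pools without 10C and 16D and without 6C too. MUC1 passed at 1.09 over 17 pools and 1.32 against the other controls.

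Leaving out 1 library letter or 1 pool gave ranges, for lungs against day 0, of 0.46 to 1.01 for Non-targeting-shRNA-1, -0.81 to -0.48 for GFP and -2.15 to -1.41 for MUC1. For lungs against culture the ranges were -0.20 to 0.32, -0.22 to 0.11, 0.53 to 1.26 and, for Non-targeting-shRNA-2, -1.20 to -0.77. Calls of the 4 hairpins ranged over letters from 2 to 6 (lungs above day 0), 2 to 7 (lungs above culture) and 4 to 14 (lungs below culture), while the shares over all hairpins ranged from 5.55% to 11.6%, 8.29% to 13.6% and 8.78% to 19.7%. The first was 5 with edgeR, 5 with TMM and 12 with DESeq2 (14.6%, 14.6% and 25.7% over all hairpins), and the second 13 with edgeR and 12 with DESeq2 (14.3% and 20.9%). Over all hairpins, culture had 184 higher and 538 lower calls with limma, 317 and 348 with edgeR, 343 and 352 with DESeq2 and 309 and 374 with TMM. Lungs against day 0 had 97 and 331, then 150 and 198, 259 and 246, and 150 and 231 in that order. Lungs against culture had 118 and 159 with limma, 147 and 134 with edgeR and 206 and 149 with DESeq2.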
